A study of Mus musculus with 3 samples.

Results

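The Ms4a genes encode a family of tetraspan membrane proteins, of which the B-cell antigen CD20, the product of Ms4a1, is the best known. They were followed here in mouse liver and spleen RNA on 3 two-colour cDNA arrays. The members were all spots whose single gene symbol in the platform annotation starts with Ms4a, which gave 15 spots for 13 genes out of 16273 spots and 7984 named genes. The symbol alone decided which spots were taken. The family itself was picked with earlier results of these data known, among them the ratios of Ms4a1 and Ms4a6b. Every array carried spleen RNA labelled with Cy3 and liver RNA labelled with Cy5. Both RNAs were bought as total RNA of the tissue and put through a double round of amplification to cRNA. The sources used here do not state the mouse strain, the age or the number of animals behind the RNA, nor whether the 3 arrays came from separate amplifications. Spread between arrays may therefore be technical, and since the dyes were the same on each array, effects of dye and of tissue cannot be told apart.

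In mice the family lies in a row on chromosome 19 and is best known from blood cells. CD20 is a surface protein of B cells that acts with the B-cell receptor and is the target of therapeutic antibodies. Ms4a2 encodes the beta chain of the high-affinity IgE receptor of mast cells and basophils. Several Ms4a4 and Ms4a6 genes are known from T cells, monocytes and macrophages, and several Ms4a proteins act as chemoreceptors in olfactory necklace neurons. Spleen is rich in B cells, T cells and macrophages, whereas liver RNA comes mostly from hepatocytes, with resident macrophages and fewer lymphocytes.

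The deposited value of a spot is the log2 ratio of the channels on 1 array, and an exact 0 was taken as missing. The numerator is not stated in the labels. Positive values are called liver over spleen because the liver genes Ttr, Fgb and Ambp had list medians of 4.19, 4.55 and 3.04 on arrays 1, 2 and 3, against -2.44, -3.06 and -1.60 for Ighm, Coro1a, Cd3g, Cd4, S100a9 and Rac2. Of these, Fgb and Ambp had a value on all 3 arrays and Ttr on array 1 only, and Coro1a had none on array 3. Neither list holds an Ms4a gene. This direction is likely rather than stated. Spots with a value numbered 13066, 11120 and 15210 on the 3 arrays, and ratios were narrowest on array 3, with a median absolute deviation of 0.40 against 0.52 and 0.68 on arrays 1 and 2. Ratios in bulk RNA do not tell fewer cells of a type from less RNA per cell.

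Of 45 possible Ms4a values, 36 were present. Array 2 lacked 6 of the 15 spots and array 1 lacked 2, while 29.7% and 17.6% of all spots with a single gene were missing on these arrays. On array 3 a single Ms4a spot, that of Ms4a6d, was missing. In all, 8 genes had a value on all 3 arrays and were tested: Ms4a1, Ms4a4c, Ms4a4d, Ms4a6b, Ms4a6c, Ms4a7, Ms4a8a and Ms4a10. Ms4a18, Ms4a19 and Ms4a20 had values on arrays 1 and 3, Ms4a13 on array 3 only, and Ms4a6d on none, so no statement about Ms4a6d is possible. RefSeq lists 21 Ms4a genes in the mouse. The other 8 (Ms4a2, Ms4a3, Ms4a4a, Ms4a4b, Ms4a5, Ms4a12, Ms4a14 and Ms4a15) had no spot named for them. Of the 15 spots, 13 carry a cDNA accession starting with AK, 1 starting with NM and 1 with BB. The clones are called by these letters below.

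Of the 8 tested genes, 6 were higher in spleen and 1 was higher in liver at a limma adjusted p under 0.05. Over all 5731 genes tested, 54.9% were called, 27.8% on the spleen side and 27.1% on the liver side. The median log2 ratio of the 8 was -1.88, beside -0.03 for all tested genes. Ms4a1 stood 2nd and Ms4a6b 7th from the spleen end of the 5731 genes, Ms4a6c 72nd, Ms4a4d 134th and Ms4a4c 232nd. The ratios of Ms4a1 and Ms4a6b were known when the family was picked, so these counts and ranks are descriptive. The remaining 3 tested genes, Ms4a7, Ms4a10 and Ms4a8a, had mean ratios between -0.41 and 0.63.

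**Figure D1:**
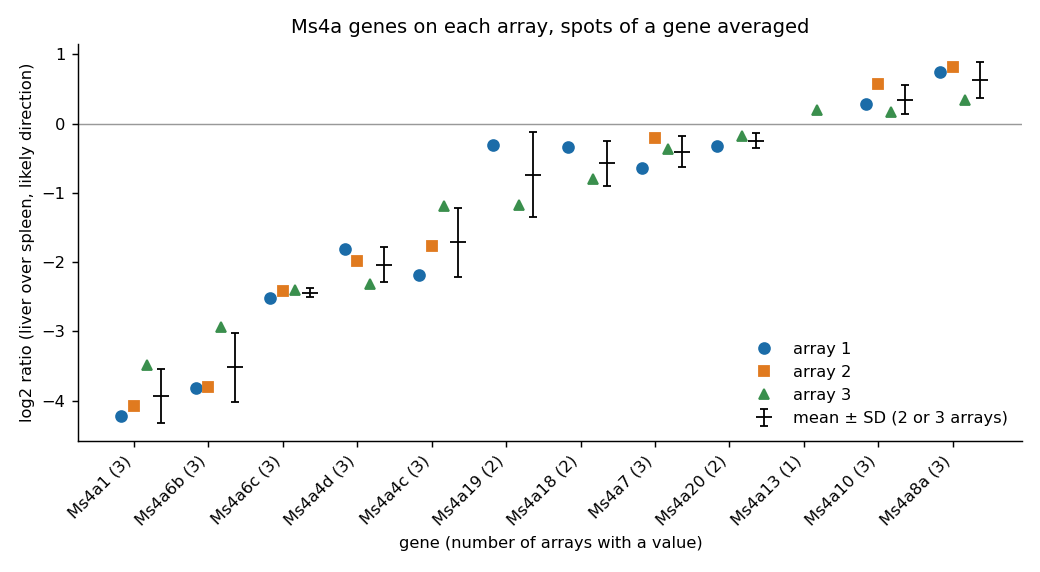
Log2 ratio of each Ms4a gene (vertical axis, liver over spleen in the likely direction) on arrays 1, 2 and 3 (circles, squares, triangles), genes ordered by mean, with black bars for the mean ± SD over the 2 or 3 arrays with a value. Ms4a1, Ms4a6b, Ms4a6c, Ms4a4d and Ms4a4c lie at or below -1.19 on each array, while the other 7 genes with a value lie between -1.17 and 0.81.

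Ms4a1, the CD20 gene, had log2 ratios of -4.22, -4.08 and -3.49 on arrays 1, 2 and 3. All 3 arrays put it far on the spleen side, with array 3 the least extreme. The mean was -3.93 ± 0.39 (SD, n = 3 arrays), or 15.2-fold higher in spleen (limma adjusted p = 6.44e-05). Only 0.0174% of tested genes had a lower mean. It was measured by a single AK clone. Over the 3 arrays the genes with the most similar ratios, by root mean square difference in log2 units, were Cd83 (0.27), Synpo2 (0.36), Ngp (0.39), Pbk (0.40) and its relative Ms4a6b (0.42).

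The Ms4a6 genes followed. Ms4a6b, which is known from T cells and macrophages, had ratios of -3.81, -3.80 and -2.94. Arrays 1 and 2 gave nearly the same value and array 3 a smaller one. Its mean of -3.52 ± 0.50 (SD, n = 3 arrays) corresponds to 11.5-fold higher in spleen (limma adjusted p = 0.000137). Ms4a1 lay below Ms4a6b on each array, by 0.41, 0.27 and 0.55 (mean 0.41 ± 0.14), although the ranges of the 2 genes over arrays overlap. The ratios closest to those of Ms4a6b belonged to Rhoh, a haematopoietic GTPase (root mean square difference 0.19), the leukocyte tetraspanin Cd53 (0.19), the mitotic kinase Pbk (0.26), Jchain (0.29) and the lipid kinase subunit Pik3cg (0.30).

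Ms4a6c, a monocyte and macrophage gene, was the most even of the tested members once its 2 clones were averaged, with ratios of -2.52, -2.41 and -2.39. The mean was -2.44 ± 0.07 (SD, n = 3 arrays), or 5.43-fold higher in spleen (limma adjusted p = 7.22e-05). Only 6.98% of tested genes had a smaller SD, and the median SD over genes was 0.22. That evenness came from averaging. The NM clone read -2.41, -2.43 and -1.92, and the AK clone -2.62, -2.39 and -2.87. The clones gave nearly the same value on array 2 and differed by 0.95 on array 3, where they moved apart in opposite directions. Fitted separately among 8284 spots (59.9% called, 30.2% on the spleen side), each was higher in spleen, with means of -2.25 ± 0.29 and -2.63 ± 0.24 (limma adjusted p = 0.000109 and 5.74e-05). Their means differed by 0.38. Over 948 genes with 2 spots valued on all arrays, the median absolute difference between spots was 0.33. For 15.9% of these genes the difference was above 1. Ms4a6c lay above Ms4a6b on each array, by 1.29, 1.39 and 0.55, and the ranges of these genes did not overlap. Different genes were measured by different clones, whose ratios are not on a common scale. Differences between genes, here and elsewhere, are therefore descriptive and were not tested. Armcx2 (root mean square difference 0.04), Ska1 (0.10), Pttg1 (0.12), Lmo2 (0.13) and Slpi (0.15) had the ratios most like those of Ms4a6c.

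Ms4a6b and Ms4a6c are close paralogs, and cDNA spots may not tell their transcripts apart. Neither Ms4a6d (no value) nor Ms4a4b (no named spot) could be compared with them. Because these neighbours lay on the spleen side together, their upstream sequences were compared. RefSeq promoter windows of the build GRCm38.p6 were matched for 10 of the 13 genes, and the 250 bases upstream of the annotated start were used. No window was matched for Ms4a1, Ms4a6d and Ms4a20. The upstream sequences of Ms4a6b and Ms4a6c share an unbroken run of 48 identical bases, which is shown in capitals, 5′ to 3′.

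Ms4a6b (chr19:11518309-11518558, plus strand): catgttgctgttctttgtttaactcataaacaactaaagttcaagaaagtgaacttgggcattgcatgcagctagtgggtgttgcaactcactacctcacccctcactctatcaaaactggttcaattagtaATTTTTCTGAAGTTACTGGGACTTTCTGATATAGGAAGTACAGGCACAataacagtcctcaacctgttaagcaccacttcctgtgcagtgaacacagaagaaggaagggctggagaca

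Ms4a6c (chr19:11469118-11469367, plus strand): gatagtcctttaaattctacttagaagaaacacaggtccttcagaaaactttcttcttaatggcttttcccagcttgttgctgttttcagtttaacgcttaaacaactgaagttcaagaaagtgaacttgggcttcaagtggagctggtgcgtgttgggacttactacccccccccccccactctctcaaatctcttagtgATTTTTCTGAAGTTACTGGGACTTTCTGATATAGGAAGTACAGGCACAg

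The run spans positions 118 to 71 upstream of the Ms4a6b start and positions 49 to 2 upstream of the Ms4a6c start. In a global alignment, 149 of 175 aligned bases (85.1%) were identical. The alignment also held 150 gap positions, and gaps are left out of this and the other identities. Among the other 53 pairs of Ms4a windows from different genes the longest run was 12 bases (Ms4a18 and Ms4a8a), the median run 8 bases and the highest identity 69.1%, with a median of 60.1%. The run includes the letters GGAAGT, a form of the sites bound by ETS factors such as PU.1, a factor of B cells and myeloid cells. Searched on both strands, GGAAGT was found in the upstream sequence of Ms4a6b (at 85 and, as its reverse complement, at 43 bases upstream), Ms4a6c (16), Ms4a4c (15), Ms4a4d (221), Ms4a7 (15, reverse complement) and Ms4a19 (214). That is 6 of 11 windows, since Ms4a7 has 2, against 19.7% of all 32851 windows of the same length. The matches at 85 in Ms4a6b and at 16 in Ms4a6c lie in the shared run, so the windows are not independent. The difference in share was not tested. Ms4a8a, Ms4a10, Ms4a13 and Ms4a18 had no match to GGAAGT, and other forms of such sites were not searched. A match of letters does not show that a factor binds.

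The Ms4a4 genes lay between Ms4a6c and zero. Ms4a4d had ratios of -1.81, -1.99 and -2.31, a mean of -2.04 ± 0.25 (SD, n = 3 arrays) and a 4.11-fold higher level in spleen (limma adjusted p = 0.000222). It was the single tested member with its most extreme ratio on array 3. Array 3 held the smallest ratio in size for 6 of the 8 tested members and for 46.9% of all tested genes. Among the 680 genes called at -1 or below, array 3 held the smallest for 51.2% and the largest for 20.9%. Ms4a4d was measured by 1 AK clone. The genes with the most similar ratios were Adam10, a membrane protease (root mean square difference 0.13), Gng10 (0.16), the macrophage lectin Lgals3 (0.17), Cd200r3 (0.17) and Peli1 (0.19).

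Ms4a4c read -2.19, -1.77 and -1.19, all on the spleen side, with the widest spread of the 8 members. Its mean of -1.72 ± 0.50 (SD, n = 3 arrays) is 3.28-fold higher in spleen (limma adjusted p = 0.00137). The call was lost when the variance was not moderated across genes (adjusted p = 0.0745; over all its alternatives, adjusted p ran from 5.04e-05 to this value). Ms4a4c and Ms4a4d were not separated: the difference, Ms4a4c minus Ms4a4d, was -0.37, 0.22 and 1.12 on the 3 arrays (mean 0.32 ± 0.75). Fam111a (root mean square difference 0.10), Gpm6b (0.11), the beta globin Hbb-bs (0.13), the urea transporter Slc14a1 (0.13) and Phf6 (0.14) had ratios most like those of Ms4a4c.

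The upstream sequences of these genes and of Ms4a8a, the gene called on the other side, are shown next for comparison. Capitals mark GGAAGT and ATGCAAAT, the latter being the octamer bound by POU factors of B cells and other cells, on either strand.

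Ms4a4c (chr19:11407411-11407660, plus strand): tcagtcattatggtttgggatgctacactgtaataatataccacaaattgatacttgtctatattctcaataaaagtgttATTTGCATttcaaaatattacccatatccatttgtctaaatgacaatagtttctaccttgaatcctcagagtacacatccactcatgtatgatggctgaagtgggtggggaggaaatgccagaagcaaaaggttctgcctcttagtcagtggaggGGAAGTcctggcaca

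Ms4a4d (chr19:11536544-11536793, plus strand): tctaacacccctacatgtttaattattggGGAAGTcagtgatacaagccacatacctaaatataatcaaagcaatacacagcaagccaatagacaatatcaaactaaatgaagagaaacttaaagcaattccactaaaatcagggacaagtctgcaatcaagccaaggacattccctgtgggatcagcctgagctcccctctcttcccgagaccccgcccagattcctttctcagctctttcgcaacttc

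Ms4a8a (chr19:11081104-11081353, minus strand): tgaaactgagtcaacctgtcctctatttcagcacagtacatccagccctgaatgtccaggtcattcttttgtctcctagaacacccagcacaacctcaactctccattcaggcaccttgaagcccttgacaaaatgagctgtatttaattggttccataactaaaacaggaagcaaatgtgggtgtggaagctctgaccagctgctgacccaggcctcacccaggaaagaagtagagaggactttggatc

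The octamer was found in 1 of the 11 Ms4a windows, that of Ms4a4c, where its reverse complement starts 170 bases upstream, against 1.6% of all windows. The letters TATAAA were found in none of the 11 and in 12.4% of all windows. These counts describe letters in short windows and say nothing of which factor was present.

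Ms4a7, a macrophage gene of spleen, liver and other tissues, was called on the spleen side with a mean of only -0.41 ± 0.22 (SD, n = 3 arrays), or 1.33-fold (limma adjusted p = 0.0487), from array values of -0.65, -0.21 and -0.36. Its 2 clones did not give one picture. The AK clone read -1.66 on array 1, had no value on array 2 and read -0.62 on array 3. The BB clone read 0.37, -0.21 and -0.11, on both sides of 0. The BB clone alone had a mean of 0.02 ± 0.31 and was not called (limma adjusted p = 0.940, among 8284 spots). On array 2 the gene's value was that of the BB clone alone. With only spots valued on all 3 arrays the mean turned to 0.02 (adjusted p = 0.940), and the call was also lost without array 1 (adjusted p = 0.280), without array 3 (0.115) and under 5 further alternatives, over a range of adjusted p from 0.0273 to 0.940. The mean of Ms4a7 thus lay on the spleen side with the AK clone included, and at about 0 without it. Tuba8, Ubn1, Actl6a, Gemin6 and Eif2ak2 had the ratios most like its mean, at root mean square differences of 0.04 to 0.07.

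**Figure D2:**
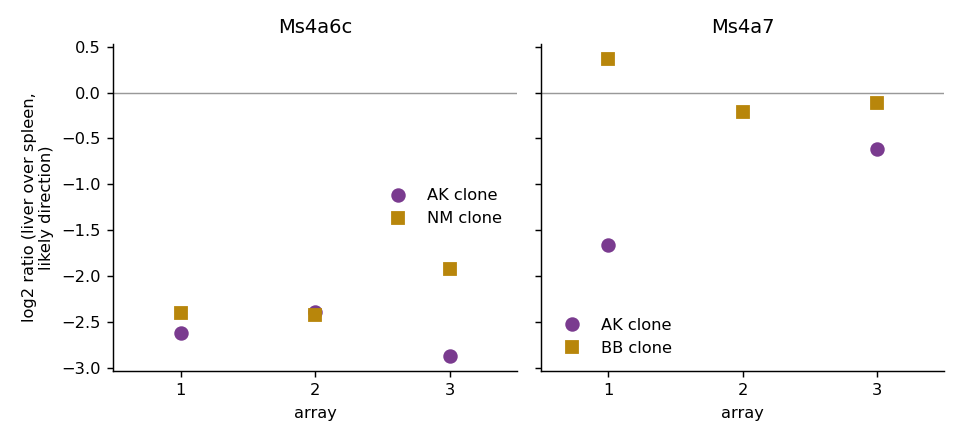
Log2 ratio (vertical axis, liver over spleen in the likely direction) of the 2 clones of Ms4a6c and of Ms4a7 on arrays 1, 2 and 3 (horizontal axis), named by the first letters of their accession. The Ms4a6c clones lie between -2.87 and -1.92 on each array, and for Ms4a7 the AK clone minus the BB clone is -2.03 on array 1, with no value for the AK clone on array 2.

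Ms4a8a, described in alternatively activated macrophages and in intestine, was the one member called on the liver side. Its ratios were 0.74, 0.81 and 0.34, all above 0, with array 3 the lowest. The mean was 0.63 ± 0.26 (SD, n = 3 arrays). This is 1.55-fold higher in liver (limma adjusted p = 0.0138), and 79.4% of tested genes had a lower mean. The call was lost without array 1 (0.58, adjusted p = 0.112) and with an unmoderated variance (adjusted p = 0.108), over a range of 0.0117 to 0.112. Ube2g1, Ccbe1, Esrra, Cox6a2 and Ppp1r2 had the most similar ratios (root mean square differences of 0.04 to 0.06). Ms4a10, an intestinal member, read 0.28, 0.57 and 0.17 and had a mean of 0.34 ± 0.21, which did not pass the test (limma adjusted p = 0.0767; 95% confidence interval 0.0082 to 0.67 before adjustment). Its ratios were also above 0 on all arrays, and lay below those of Ms4a8a by 0.47, 0.24 and 0.17, with overlapping ranges. The genes nearest to Ms4a10 were Pdk2, Ntmt1, Lrp6, Hmgxb3 and Phactr4, at 0.01 to 0.03. Small distances are easily met near 0, where most genes lie.

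The members with fewer values were close to 0 beside Ms4a1 and are given without a test. Ms4a18 read -0.34 on array 1 and -0.80 on array 3. Ms4a19 read -0.31 and -1.17, and Ms4a20 -0.32 and -0.17, on the same arrays. All 3 were on the spleen side in both of their values. Ms4a13 had 0.20 on array 3. None of these 4 genes had a value on array 2.

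On chromosome 19 the 5 members with means below -1 all lay at or after Ms4a1 in gene order, with Ms4a7 and genes without a spot between Ms4a1 and Ms4a4c. The 8 Ms4a genes that RefSeq places before Ms4a1 begin with Ms4a10 and end with Ms4a12. The 6 of them with a value (Ms4a10, Ms4a18, Ms4a8a, Ms4a20, Ms4a19 and Ms4a13) had mean log2 ratios from -0.74 to 0.63. Of the 13 genes from Ms4a1 to Ms4a3, 6 had a value (Ms4a1, Ms4a7, Ms4a4c, Ms4a6c, Ms4a6b and Ms4a4d), with means from -3.93 to -0.41, and all 6 were called on the spleen side, Ms4a7 with the reservation above. The 2 stretches were not compared by a test, since genes in a row are not replicates and the split at Ms4a1 was chosen after seeing the values. Of 19 other protein-coding genes around and among them, 2 had a named spot: Ccdc86, just before Ms4a10, with 0.25 and 0.17 on arrays 1 and 3, and the mitochondrial ribosomal protein gene Mrpl16, beyond the far end, with 1.03 ± 0.03 (SD, n = 3 arrays; limma adjusted p = 0.000955) on the liver side.

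**Figure D3:**
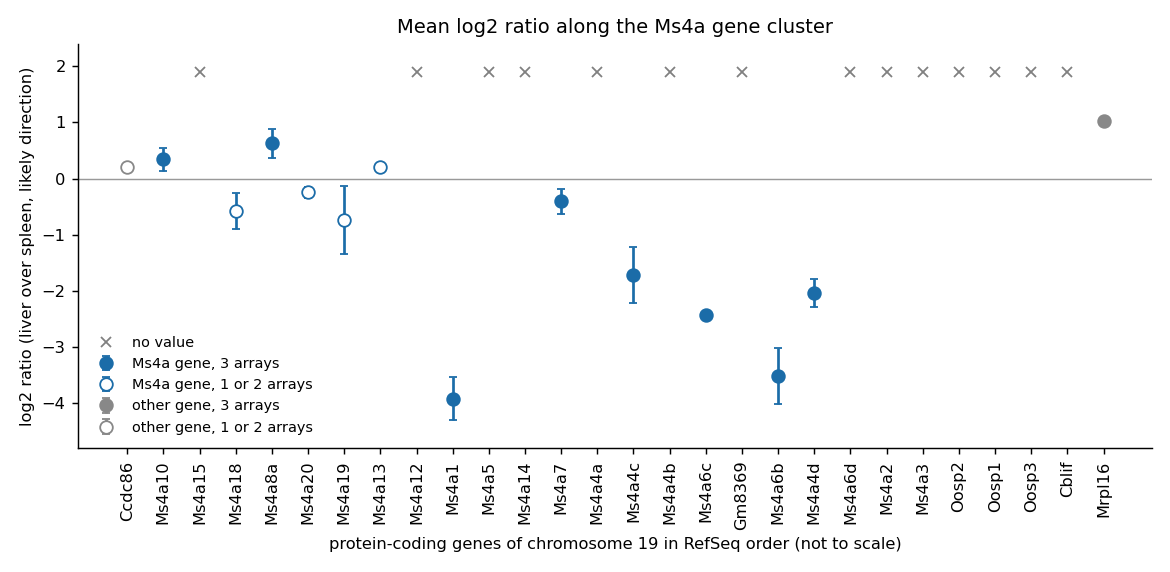
Mean log2 ratio (vertical axis, liver over spleen in the likely direction; bars, SD over arrays) of protein-coding genes in RefSeq order on chromosome 19 (horizontal axis, not to scale). Filled points have 3 arrays, open points 1 or 2, and crosses at the top mark genes with no value. Means lie between -0.74 and 0.63 from Ms4a10 to Ms4a13 and between -3.93 and -0.41 from Ms4a1 to Ms4a4d.

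Other genes of the cells known to express the family are given for comparison, without a test of the lists. Over all 5731 tested genes, 27.8% were called on the spleen side and 27.1% on the liver side. Of 42 B-cell surface and signalling genes, 13 were tested, with 11 called on the spleen side and 1 on the liver side (median -2.73). They were led by Cd83 (-4.01 ± 0.14), a surface protein of activated B and dendritic cells, the joining chain Jchain (-3.45 ± 0.51) and the coactivator Pou2af1 (-3.41 ± 0.14). The tetraspanin Cd81, which many cell types express, was on the liver side (1.45 ± 0.16). A further 3 genes of this list had values on fewer arrays, all above 0 and without a test: Cd24a (1.69 and 0.69 on arrays 2 and 3), Spib (1.11 and 0.77 on the same arrays) and Btk (0.16 on array 3). Ms4a1 stood below 12 of these 13 genes, with Cd83 lower. Of 40 T and NK cell genes, 7 were tested, 5 higher in spleen and 2 in liver (median -1.91), led by Cd3g (-3.13 ± 0.62), Cd8a (-2.90 ± 0.29) and the adaptor Skap1 (-1.95 ± 0.18), with Cd3d (1.24 ± 0.16) and Il2rb (0.53 ± 0.13) on the liver side. In the T and NK list, Cd7 (0.03) and Nkg7 (-1.20) had a value on array 3 only and were not tested. Ighm in the B-cell list and Cd3g and Cd4 in the T and NK list also served to set the direction.

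Of 51 monocyte and macrophage genes, 8 were tested, 5 higher in spleen and 1 in liver (median -0.68). The receptor kinase Axl (-2.14 ± 0.06), Aif1 (-2.12 ± 0.58) and Lgals3 (-1.94 ± 0.21) led, and the protease Ctsz (0.76 ± 0.39) was on the liver side. Ms4a6b and Ms4a6c lay below all 8. The defining markers Csf1r (0.49) and Cd68 (0.12) had a value on array 3 only and C1qa on arrays 2 and 3 (0.74 and 0.16), so no macrophage marker fixed for these tissues could be tested. Other genes of this list with fewer values went both ways. Itgax (-2.33 and -1.51 on arrays 1 and 3), Ccr2 (-0.71 and -0.47 on the same arrays) and Mertk (-0.23 on array 3) were below 0. Ctsb (0.10 and 0.21 on arrays 1 and 3), Tlr4 (0.30), Irf8 (0.30) and Sirpa (0.25), these last on array 3 only, were above 0. Of 8 B-cell markers only Cr2 was tested (-3.30 ± 0.95), of 7 T and NK markers 4, of 5 mast cell markers none (Kit read 0.18 on array 3) and of 5 hepatocyte markers Apoh (5.16 ± 0.17) and Fgb (4.14 ± 1.41). Of these markers, Fgb, Cd3g and Cd4 also served to set the direction. The part of each cell type in the Ms4a ratios was not tested.

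Of 25 genes for Fc receptors and mast cells, 6 were tested, 3 higher in spleen and 1 in liver (median -0.38). Pigr (4.11), Fcgr2b (0.29) and Kit (0.18) had a value on array 3 only, all above 0 and without a test. Fcer1g, the gamma chain that joins the Ms4a2 product in the IgE receptor, was higher in spleen (-1.72 ± 0.17), as was Cnrip1 (-0.84 ± 0.29), and Fcrls was higher in liver (1.89 ± 0.43). Of 54 genes of other multi-pass membrane families, among them tetraspanins, claudins and myelin-type proteins, 19 were tested, 9 higher in spleen and 6 in liver (median -0.49). The shares called over all tested genes were 27.8% and 27.1%. Cd53 (-3.38 ± 0.51), Tspan13 (-2.61 ± 0.53) and Emp1 (-2.38 ± 0.17) led on the spleen side. Tspan31 (1.76 ± 0.28), the tight-junction protein Cldn3 (1.48 ± 0.68) and Cd81 led on the liver side. Tspan6 (0.30), Tspan9 (0.35) and Cldn2 (0.58) had a value on array 3 only and were not tested. Also untested, with values on arrays 1 and 3, were Tspan15 (-0.09 and 0.23), Pllp (0.92 and 0.33) and Mal (-0.71 and 0.07). All 16 hepatocyte genes tested, of 30 listed, were called on the liver side (median 4.54), led by Aadac (5.85 ± 0.10), Baat (5.68 ± 0.27) and Gldc (5.66 ± 1.06). Fgb and Ambp, among these 16, also served to set the direction, so their side was given beforehand. No Ms4a gene came near the hepatocyte genes, the highest being Ms4a8a.

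**Figure D4:**
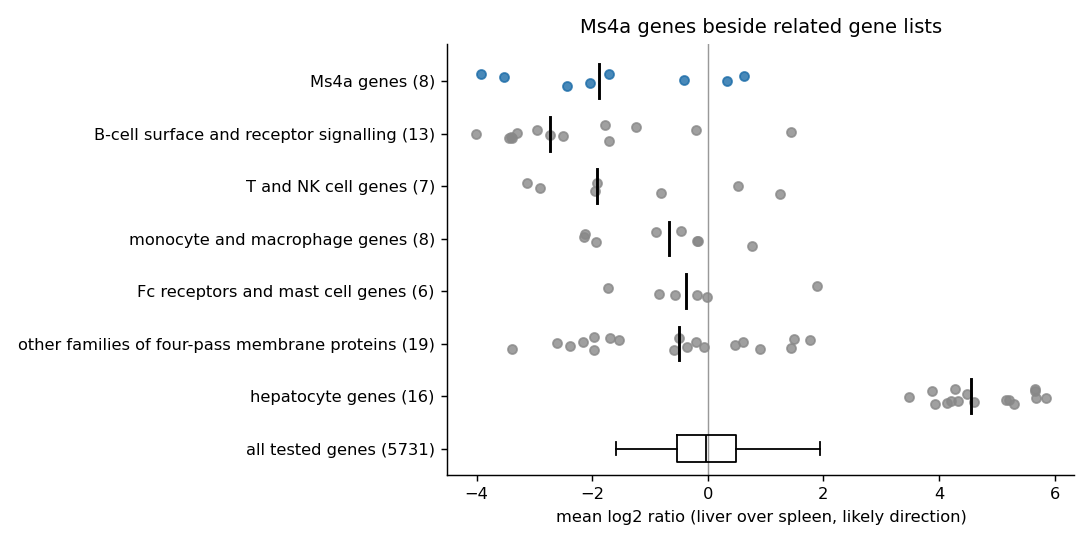
Mean log2 ratio (horizontal axis, liver over spleen in the likely direction) of each tested gene (points) in the Ms4a family and in 6 related lists, with black lines for list medians; vertical scatter within a row has no meaning. The box below gives the median and quartiles of all 5731 tested genes, with whiskers at the 5th and 95th percentiles. Medians are -1.88 for the Ms4a genes, -2.73 for the B-cell list and 4.54 for the hepatocyte list.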

How the data were processed

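The series holds 3 two-colour cDNA arrays of amplified spleen (Cy3) and liver (Cy5) RNA. The values deposited by the authors are log2 ratios, 1 for each spot of an array. Base 2 was inferred, as the highest value, 6.64, equals log2 of 100. The sources used here do not state background correction, normalization, filters or the numerator. An exact 0 (3207, 5153 and 1063 spots) was treated as missing, since any other value was found at most 2 times per array. No depth or intensity was used, so the number of arrays limits the precision.

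Gene names came from the platform annotation, with symbols brought up to date from RefSeq (GRCm38.p6) by Entrez identifier, which matched 12228 of 12397 annotated spots. Of all spots, 12336 had 1 gene, 61 several and 3876 none. Spots of a gene were averaged per array. Genes with values on all 3 arrays were compared with 0 by limma 3.58.1 under R 4.3.3 (lmFit, eBayes, two-sided, 3.51 prior degrees of freedom added to 2), and genes under a Benjamini-Hochberg adjusted p of 0.05 were called. A run on simulated independent ratios with known changes checked the code of the fit only, not its error rate in these data. An exact sign-flip test on 3 arrays cannot go below p = 0.25 and was not used. Promoter windows were aligned with Biopython 1.88 (match 1, mismatch -1, gap opening -3, extension -0.5).

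Named were every Ms4a gene and spot, the 3 leading called genes of each list and up to 3 on the opposite side. The 5 genes nearest to each member in root mean square difference and tested chromosomal neighbours were also named. So were listed genes with values on fewer than 3 arrays. The family and the lists were picked for study with earlier results of these data known, among them the ratios of Ms4a1 and Ms4a6b, and within the family every spot was taken by its symbol. The alternatives changed the treatment of zeros and limit values, centring, scaling, spot averaging, the required number of arrays and the variance, and left out each array.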

Additional observations from a re-analysis of the deposited data

How the results depend on the processing

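Ms4a1, Ms4a6b, Ms4a6c and Ms4a4d kept their direction and call under all 12 alternatives run for each, with adjusted p of at most 0.0304, 0.0388, 0.0180 and 0.0352. Ms4a10 stayed uncalled under its 12 (adjusted p from 0.0678 to 0.289). With each gene's own variance, the calls over all 5731 genes tested went from 3146 to 1461. Over the 8 Ms4a genes tested they went from 7 to 4, with Ms4a4c (-1.72), Ms4a7 (-0.41) and Ms4a8a (0.63) lost. Over all genes, leaving out array 1 gave 1841 calls of 5870 tested, array 2 gave 3343 of 6739 and array 3 gave 2711 of 5772. Ms4a calls then numbered 5 of 8, 9 of 11 and 6 of 8. The 9, without array 2, were of 11 tested, as Ms4a18 (adjusted p = 0.0186) and Ms4a19 (0.0110) then entered with 2 values each. With values on at least 2 arrays they were not called (0.0652 and 0.0725). Leaving out 1 array moved Ms4a8a from 0.54 to 0.78 and Ms4a7 from -0.51 to -0.29. Ms4a7 also lost its call with exact zeros as values (-0.37), with scaled arrays (-0.44), with genes valued on at least 2 arrays (-0.41) and with a variance trend (-0.41), and turned sign to 0.015 with only spots that had 3 values. Its BB clone, never called, turned to -0.0054 with centred arrays and ranged from -0.16 to 0.13 when 1 array was left out. No paired analysis was possible because the 3 arrays form 1 group, and each ratio already compares the tissues within an array. Centring moved array medians by at most 0.05. The files used hold no intensities, so how far a signal stood above background is unknown.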
